A study of Mus musculus with 6 samples.

Results

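The early growth response genes Egr1, Egr2, Egr3 and Egr4 and the genes of their corepressors Nab1 and Nab2 were examined in MLO-Y4 cells, a murine osteocyte-like line derived from mice that carry an immortalizing T antigen under the osteocalcin promoter. The 6 genes were found by their symbols among the 53797 genes of the deposited table, and each had 1 entry. The cells were maintained in medium with serum. Low-intensity pulsed ultrasound (LIPUS) was given for 20 min at 30 mW/cm2 and 1.5 MHz to 3 samples, and 3 control samples were untreated. Control wells sat in the same culture plate over unplugged transducers, the samples came from independent repeats, and RNA was taken 30 min after the stimulation. The deposited table holds 1 FPKM per group, a level normalized to transcript length and library size that combines the 3 libraries of each group. The spread between samples and the depth of each library are therefore unknown, no SD is given, no test was run, and every difference below is a description of the pooled values. The study describes a control sample that stood apart from the other controls and raises leakage of LIPUS within the plate. No value could be computed without that sample.

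Egr proteins are zinc finger transcription factors that bind GC-rich sites. Their genes belong to the immediate early genes, which cells transcribe within minutes of growth factors, serum or mechanical strain, through MAP kinase signalling and serum response factor (SRF) at CArG boxes in their promoters. Nab1 and Nab2 bind Egr proteins and repress the transcription of their targets, and Nab2 is itself an Egr target, so that the family is known for a negative feedback loop.

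The 2 promoters shown here are those of Egr2 and Egr4, the only Egr genes with a matched promoter window. The capitals mark letters tied to serum and cAMP responses. Promoter windows from RefSeq (GRCm38.p6), 250 bases before to 50 after a start, were matched for 4 members, Egr2 (5 windows), Egr4, Nab1 and Nab2 (1 each). None was matched for Egr1 or Egr3, so their promoters were not searched and cannot be compared with these. Only bases before the start and outside annotated exons are printed. Capitals mark CArG boxes, searched as exact matches to CCWWWWWWGG with W for A or T. They also mark the letters TGACG, the core of the cAMP response element, on either strand. The Egr2 stretch is chr10:67537619-67537868 on the plus strand and the Egr4 stretch is chr6:85513590-85513839 on the minus strand.
Egr2: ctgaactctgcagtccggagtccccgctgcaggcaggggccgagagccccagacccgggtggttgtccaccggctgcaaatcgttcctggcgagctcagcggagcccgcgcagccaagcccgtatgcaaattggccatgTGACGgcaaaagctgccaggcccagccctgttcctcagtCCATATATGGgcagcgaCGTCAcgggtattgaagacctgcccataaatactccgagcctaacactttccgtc
Egr4: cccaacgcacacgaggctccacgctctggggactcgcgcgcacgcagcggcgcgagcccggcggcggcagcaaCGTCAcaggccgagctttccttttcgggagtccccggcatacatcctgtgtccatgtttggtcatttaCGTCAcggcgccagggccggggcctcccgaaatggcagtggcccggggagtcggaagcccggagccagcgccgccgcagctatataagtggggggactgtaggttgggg

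The CArG box of the printed Egr2 stretch lay at bases -72 to -63 from the start, next to a TGACG core at -55 to -51 and another at -111 to -107, with no overlap between them. Of the 5 Egr2 windows, 4 held a CArG box, 3 of them this same one. Among all 32817 promoter windows of this length, 1.63% held a CArG box and 20.8% a TGACG core, searched on both strands. The Egr4 window held 2 TGACG cores, at -177 to -173 and -109 to -105, and no exact CArG box. Forms with a mismatch, such as ccatgtttgg in the printed Egr4 stretch, were not counted in any window. In the Nab1 window 1 TGACG core was found, at -123 to -119, and in the Nab2 window none. An ETS core, written CCGGAA, was found on either strand in 14.9% of all windows and among the members 3 times in an Egr2 window that starts further upstream, where 2 of these matches overlapped. Sites of the Egr proteins themselves were searched as GCGTGGGCG (0.612% of windows) and GCGGGGGCG (2.91%). The Nab1 window held the first form 2 times and the second form 1 time, and the Egr2, Egr4 and Nab2 windows neither. The Nab2 window, from 127666654 to 127666953, lies inside the span that GENCODE gives Nab2 on the minus strand. Bases before the GENCODE start at 127668568 were not searched. G and C made up 81.7% of the Nab1 window, against a median of 52.7% over all windows. The shares among windows of like GC content were not computed. A match is a description of letters and shows neither binding nor use.

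All 4 Egr genes were higher in LIPUS-treated than in control cells, between 1.78-fold (Egr1) and 2.96-fold (Egr4), whereas Nab1 was level and Nab2 was lower. A ratio of at least 1.5 in a gene with a higher FPKM of at least 1 is used here as the size that counts as called. By this rule 4 of the 6 members were called higher with LIPUS, against 8.41% of the 11777 genes that reached the minimum, and 0 of the 6 were called lower, against 8.91% of them. Over these genes the median log2 ratio was -0.0014 and the median absolute log2 ratio 0.22. All 6 members were above the minimum in both groups, and all carried the status OK in the deposited table, which is set where the authors' software made its comparison.

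**Figure D1:**
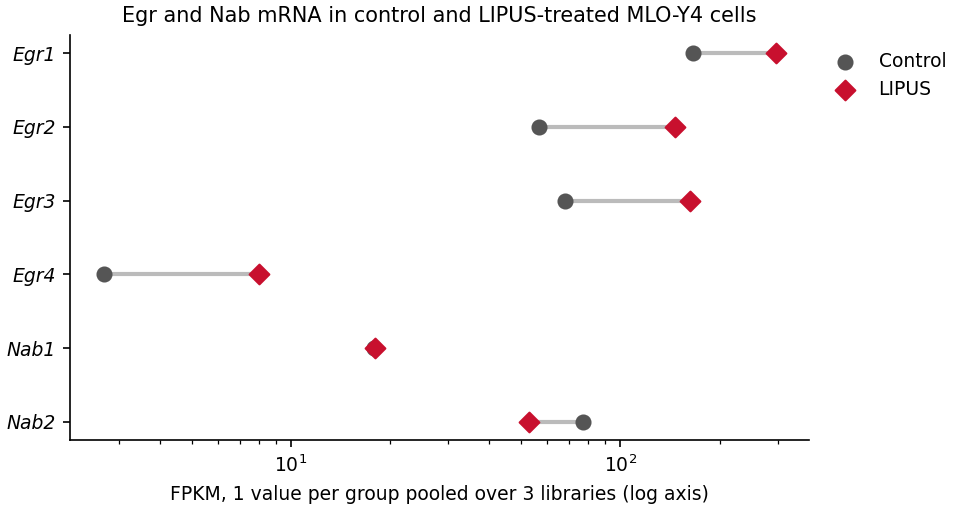
Pooled FPKM of the 6 genes on a log axis, with a grey circle for Control and a red diamond for LIPUS; no error bars can be drawn, since there is 1 value per group. The diamonds of all 4 Egr genes lie to the right of their circles, those of Nab1 coincide, and that of Nab2 lies to the left.

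Egr1, the prototype of the family, had the most mRNA of the 6 genes in both groups. Its FPKM was 166 in Control and 296 with LIPUS, a log2 ratio of 0.83. It ranked 537th of all genes by FPKM in Control and 305th with LIPUS. Egr1 lies on chromosome 18 of GRCm38 from 34859823 to 34864984.

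Egr2, also known as Krox20 and required for myelination by Schwann cells, had an FPKM of 56.6 in Control and 147 with LIPUS (log2 ratio 1.37, 2.59-fold). Its rank moved from 1732nd to 635th. The gene lies on chromosome 10 from 67535475 to 67542188. Egr3, a relative with roles in muscle spindles and T cells, had an FPKM of 67.9 in Control and 163 with LIPUS (log2 ratio 1.26, 2.40-fold). Its rank moved from 1422nd to 566th, and it lies on chromosome 14 from 70077203 to 70082614. In both groups Egr3 was slightly above Egr2, by 1.20 times in Control and 1.11 times with LIPUS, and without a spread this order is not established.

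Egr4 was the scarcest member and had the highest ratio of the deposited values. It had an FPKM of 2.70 in Control and 7.99 with LIPUS, a log2 ratio of 1.56. With a pseudocount of 1 its log2 ratio was 1.28 and that of Egr2, 1.36, was the highest. Egr1 exceeded it 61.4-fold in Control and 37.0-fold with LIPUS on the FPKM scale. Egr4 lies on chromosome 6 from 85511121 to 85513589.

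Ratios spread more widely in scarce genes, so the same fold has a different background at each level. Of the 1024 genes whose higher FPKM reached 100, 3.32% were at least 1.5-fold higher with LIPUS. Within this band 2 genes had a ratio as high as that of Egr2, and the numbers were 4 for Egr3 and 15 for Egr1, each counting the gene itself. Egr2 and Egr3 reach this band only through their LIPUS values, so that the difference described also placed them there. With bands set by the Control FPKM, a choice made after seeing the data, both lie among the 5752 genes from 10 to under 100, of which 2.54% were at least 1.5-fold higher, and 3 genes had a ratio as high as that of Egr2 and 8 as high as that of Egr3. With bands set by the mean of both groups the numbers were 2 and 3 of 951 genes from 100 on. In Control both genes were under 100, so that here too the difference described placed them in the band. In the band of higher FPKM from 1 to under 10, where Egr4 lies, 14.8% of 4765 genes were at least 1.5-fold higher, and 126 genes had a ratio as high as that of Egr4. By Control FPKM the number was 33 of 4749 genes, and by the mean of both groups 77 of 4745.

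**Figure D2:**
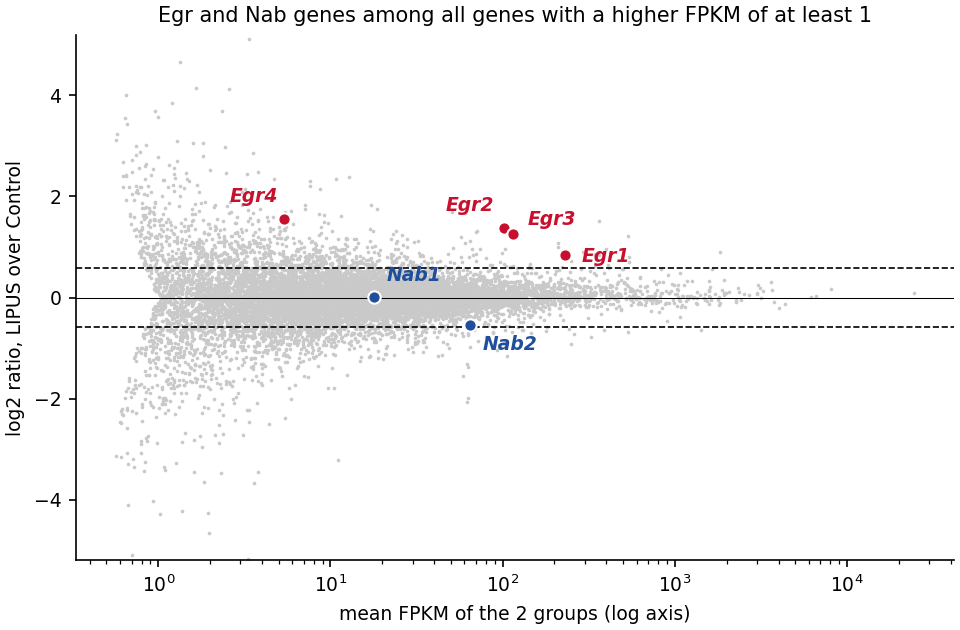
Each point is a gene with a higher FPKM of at least 1, at its mean FPKM (log axis) and its log2 ratio of LIPUS over Control; dashed lines mark a ratio of 1.5 in either direction, and 3 of 11777 genes lie outside the plotted range. Egr1, Egr2 and Egr3 sit above nearly all genes of their level, Egr4 lies in the wider cloud of scarce genes, Nab1 is at 0 and Nab2 just inside the lower line.

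The 4 Egr genes summed to an FPKM of 293 in Control and 614 with LIPUS, which is 2.09 times as much. Egr1 made up 56.6% of this sum in Control and 48.2% with LIPUS. The shares of Egr2 (19.3% and 23.9%) and Egr3 (23.1% and 26.5%) were larger with LIPUS, and Egr4 contributed 0.922% and 1.3%. The order by gain differs from the order by ratio. Of the total gain of 320 FPKM, Egr1 supplied 40.6% with 130 FPKM, Egr3 29.7% with 95.0 FPKM, Egr2 28.1% with 90.1 FPKM and Egr4 1.65% with 5.29 FPKM.

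Nab1, a corepressor of Egr proteins, was level between the groups. Its FPKM was 17.9 in Control and 0.0465 higher with LIPUS, a log2 ratio of 0.0037, and 49.3% of genes had a ratio as high. Nab1 lies on chromosome 1 from 52457294 to 52500679. Nab2, its close relative, had an FPKM of 77.0 in Control and 52.9 with LIPUS, which is 68.6% of the Control level (log2 ratio -0.54). This is a difference of 1.46-fold, just short of the size that counts as called, and 9.99% of genes had a ratio as low. In its own band, from 10 to under 100, 5.06% of 5988 genes did.

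The Nab genes together had an FPKM of 94.9 in Control and 70.8 with LIPUS, so that Egr mRNA exceeded Nab mRNA 3.09-fold in Control and 8.66-fold with LIPUS. Egr1 alone was 2.16 times the level of Nab2 in Control and 5.60 times with LIPUS. Nab2 was the more abundant corepressor in both groups, by 4.30 times over Nab1 in Control and 2.94 times with LIPUS.

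**Figure D3:**
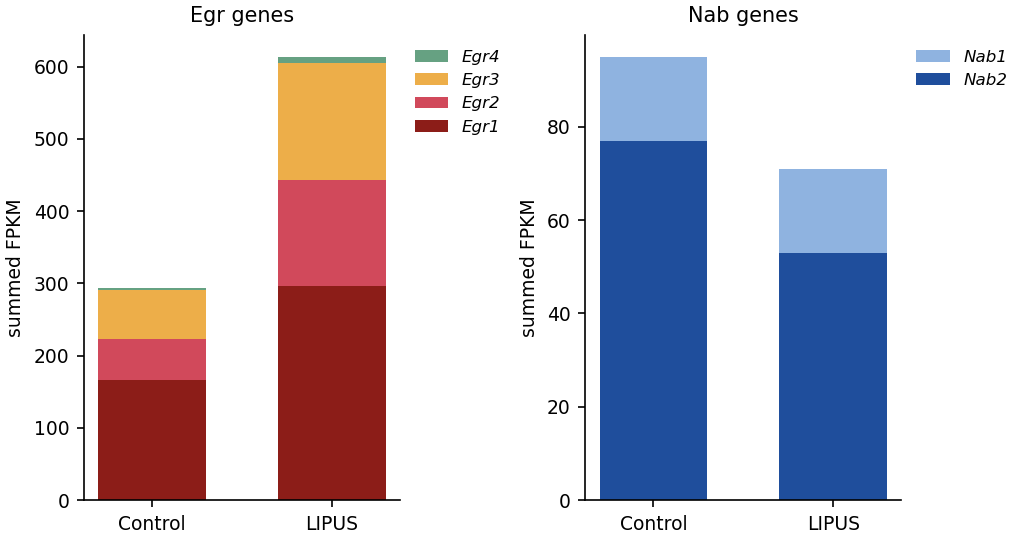
Stacked bars of the pooled FPKM of the Egr genes (left) and the Nab genes (right) in each group; the axes start at 0 and have different scales. The Egr bar is 293 in Control and 614 with LIPUS, and the Nab bar is 94.9 and 70.8, with the difference on the Nab side in Nab2.

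Among the members, Nab2 alone shares its assigned locus with other genes, and its value calls for caution for that reason. In GENCODE M21, Nab2 spans chromosome 10 from 127660918 to 127668568 on the minus strand, but the deposited table assigns it a locus of 58064 bases shared by 5 genes. The antisense gene Gm16229 lies inside Nab2 on the opposite strand, and 1050 of its 1232 exonic bases (85.2%) are also exonic in Nab2, where they make up 35.7% of the exonic bases. The libraries were stranded, but use of the strand in the authors' quantification is not given in the sources used here, so whether fragments of these bases were told apart between Nab2 and Gm16229 is not known.

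Gm16229 had an FPKM of 39.6 in Control and 29.1 with LIPUS, a log2 ratio of -0.44 beside the -0.54 of Nab2. Stat6, which encodes a transcription factor of interleukin signalling, shares only 40 exonic bases with Nab2 at their 3' ends and had an FPKM of 55.6 and 43.3 (-0.36). Nemp1, which encodes a nuclear envelope protein and starts inside the Nab2 span on the opposite strand, had an FPKM of 6.68 and 4.75 (-0.49) and shares 151 exonic bases. All 4 genes of the locus above 0 were thus lower with LIPUS, and none by the 1.5-fold that counts as called. Gm16230 is listed at 0 in both groups. Whether the shared bases or the joint locus moved the value of Nab2 was not tested.

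**Figure D4:**
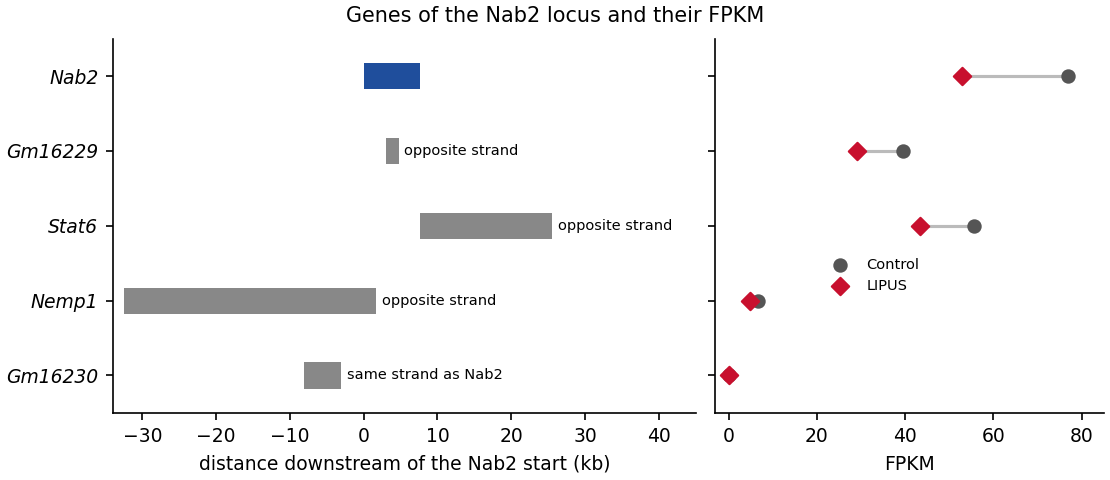
Left, the spans of the 5 genes that share a locus in the deposited table, as distance downstream of the Nab2 start in kb, with their strand relative to Nab2. Right, their pooled FPKM in Control (grey circle) and LIPUS (red diamond), where the LIPUS value is the lower one for Nab2, Gm16229, Stat6 and Nemp1.

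Related genes can share reads where their transcripts are alike. The longest exact run shared by transcripts of Egr2 and Egr3 was 44 bases, of Egr3 and Egr4 38 bases and of Egr2 and Egr4 29 bases, all within the coding parts. Egr1 shared at most 17 bases with any of the other Egr genes. Reads had 100 bases before trimming, and their lengths after it are not given in the sources used here. Runs with mismatches were not searched, and whether reads were shared between Egr genes was not tested. The run of Egr2 and Egr3 is printed as the longest of the Egr pairs, and the Nab pair had its longest run, 46 bases of a CA repeat, outside the coding parts.
Egr2 and Egr3: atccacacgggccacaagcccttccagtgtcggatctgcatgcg

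Immediate early mRNAs are short-lived, and the pentamer ATTTA in 3' UTRs is a known mark of unstable mRNAs. For each gene the longest coding transcript with an annotated stop codon and 3' UTR was used. Of 10775 genes with such a transcript that reached the minimum FPKM, 69.8% had at least 1 such pentamer on the sense strand, with a median of 1.33 per kb. Egr3 had 7 pentamers in 2645 bases, Egr2 3 in 1200 bases and Egr1 2 in 1216 bases. Egr4 had 0 in 519 bases. Nab1, with 6 in 1924 bases, and Nab2, with 3 in 752 bases, carried more per kb (3.12 and 3.99) than Egr1 (1.64), Egr2 (2.5) or Egr3 (2.65), and all of these were above the median.

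Genes that act with the Egr proteins were taken from lists and are described by counts beside the 8.41% higher and 8.91% lower of all genes. Upstream, the list of MAP kinase and SRF pathway genes had 13 members, all above the minimum. None was called higher and 2 were called lower (1 with a pseudocount of 1, and 0 at a ratio of 2 or a minimum FPKM of 10, beside 6.79%, 3.51% and 3.85% of all genes), with a median log2 ratio of -0.02. Srf itself had an FPKM of 74.8 in Control and 80.5 with LIPUS, and Map2k2, which encodes a kinase of the ERK pathway, 71.2 and 76.4. The genes called lower were scarce and had the status NOTEST, Mkl2, which encodes a coactivator of SRF (5.29 and 3.39 FPKM), and Rps6ka5, which encodes the kinase MSK1 (2.75 and 1.44 FPKM).

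Nab2 recruits Chd4 of the NuRD complex, which removes acetyl groups from histones. None of the 13 NuRD subunits was called in either direction, and their log2 ratios ran from -0.42 to 0.47 with a median of -0.15. The subunit Chd4 had an FPKM of 91.7 in Control and 81.2 with LIPUS, and the most abundant, Rbbp7, 148 and 160. The coactivators Ep300 (15.7 and 10.9 FPKM) and Crebbp (7.63 and 7.37 FPKM) were not called either. Among factors that bind similar GC-rich sites, Sp1 had 24.5 FPKM in both groups and Sp3 had 23.3 in Control and 28.4 with LIPUS, while Wt1 is listed at 0 in both.

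Of 24 known target genes of Egr proteins, 18 reached the minimum. Of these, 4 were called higher and 0 lower, and the median log2 ratio was 0.11. F3, which encodes tissue factor, the starter of coagulation, had an FPKM of 9.41 in Control and 18.8 with LIPUS. Plau, which encodes urokinase, had 271 and 416. The growth factor gene Igf2 (0.347 and 1.27 FPKM) and the cytokine gene Tnf (3.12 and 4.93 FPKM) had the status NOTEST. The most abundant targets, Fn1 (fibronectin, 1915 and 2028 FPKM) and Vegfa (an angiogenic factor, 728 and 901 FPKM), were not called. Igf2 reached the minimum only through its LIPUS value, and so had to differ to be counted. The number called higher was 3 with a pseudocount of 1, beside 6.70% of all genes. It was 2 at a minimum FPKM of 10, beside 4.06% of all genes, where F3 also reached the minimum only through its LIPUS value. It was 2 at a ratio of 2, beside 3.4%.

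Of 13 other immediate early genes, 7 were called higher and 0 lower, with a median log2 ratio of 0.61. The 7 genes were Junb (415 in Control and 673 FPKM with LIPUS), Arc (261 and 466), Ier3 (86.9 and 133), Nr4a1 (44.8 and 87.5), Fosb (34.8 and 80.1), Nr4a2 (13.3 and 25.6) and Nr4a3 (2.21 and 4.85). Nr4a3, and Atf3 among those not called (5.58 and 3.75 FPKM), had the status NOTEST. At a ratio of 2 the number called higher was 2, Fosb and Nr4a3, beside 3.4% of all genes at that ratio. It was 6 at a minimum FPKM of 10, without Nr4a3, beside 4.06% of all genes. Of the 13, 12 had a log2 ratio above 0, and Atf3 had the lowest, -0.57. The highest, 1.20 in Fosb, was below those of Egr2, Egr3 and Egr4.

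**Figure D5:**
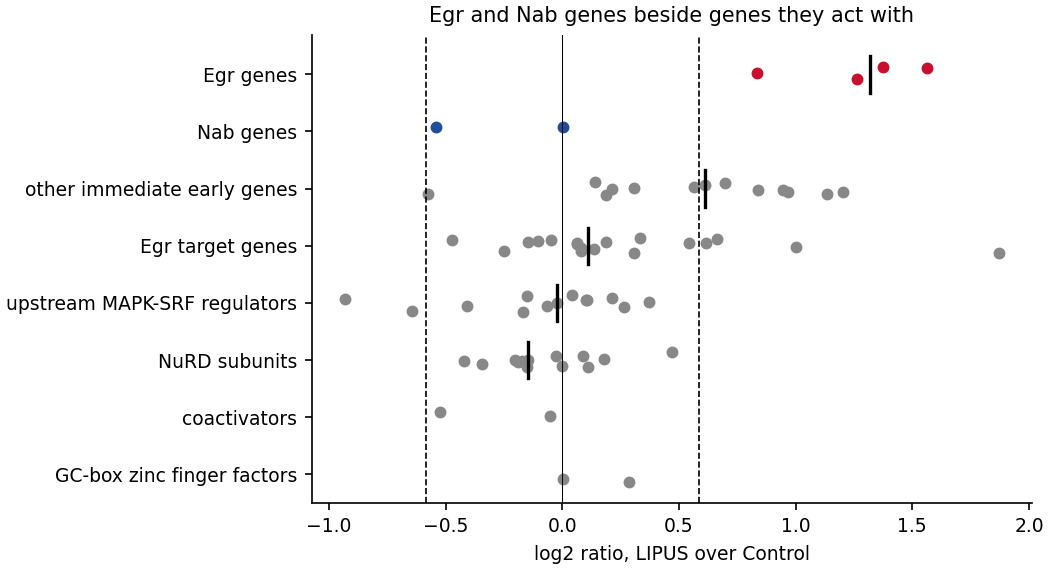
Log2 ratio of LIPUS over Control for the Egr genes (red), the Nab genes (blue) and the members of each list that reached the minimum (grey), with black bars for the medians of groups of more than 2 genes and dashed lines at a ratio of 1.5 in either direction. The Egr genes run from 0.83 to 1.56, the other immediate early genes have a median of 0.61, and the NuRD subunits all lie between the dashed lines.

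The osteocyte label was checked against 7 markers, since Egr2 and Egr3 are also used by other cells. Pdpn (295 in Control and 402 FPKM with LIPUS) and Gja1 (176 and 170 FPKM) were abundant and Dmp1 was low (3.04 and 7.65 FPKM), while Sost, Mepe and Fgf23 are listed at 0 in both groups and Phex was listed at 0 in Control. Among Schwann cell markers, Prx had an FPKM of 2.27 in Control and 1.90 with LIPUS, and Sox10 is listed at 0 in both groups. The 3 T cell and 2 B cell markers are listed at 0 in both groups. The summed FPKM of 3 macrophage markers was 0.236 and 0.233, with Ptprc and Adgre1 at 0, and that of 2 endothelial markers was 0.496 and 0, with Cdh5 at 0. In pooled RNA, more cells with an mRNA and more mRNA per cell cannot be told apart.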

How the data were processed

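RNA from 3 LIPUS and 3 Control samples was sequenced as paired-end reads of 100 bases from stranded mRNA libraries. Trimmomatic 0.36 served for trimming, and TopHat2 2.1.0 with Bowtie2 2.2.6.0 for alignment to GRCm38, after which the authors deposited 1 FPKM per group from Cuffdiff. The submitters' processing notes name Cufflinks 2.1.1, whereas the methods name another release. Ensembl transcripts were used. Samples were grouped by their titles. The deposited fold changes, test statistics, p-values, q-values and significance calls hold the authors' own comparison and were not used, and no columns of single libraries were analysed. Depth per library is unknown.

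The log2 ratio of LIPUS over Control was computed here with no pseudocount, for genes above 0 in both groups with a higher FPKM of at least 1. A ratio of 1.5 counts as called. No test was run. The members and lists were chosen with earlier results of these data known. Named are all members, list genes past the ratio, the 2 most abundant of each list, and the 2 genes nearest to a member in both log2 FPKM values; the genes of the Nab2 locus, the neighbouring genes, Atf3 and the less abundant markers fall outside this rule and were chosen after values were seen. Structures came from GENCODE M21 (GRCm38), which matched 99.8% of the genes, and promoters from RefSeq (GRCm38.p6). Python 3.11.15, numpy 2.4.6, pandas 2.3.3 and matplotlib 3.10.9 were used, and the ratio and calling steps were tested on simulated data. Alternatives were ratios of 2 and 1.3, pseudocounts of 1 and 0.1, a minimum FPKM of 10 or none, centring on the median, and scaling to equal sums. Some marker and neighbouring genes are not reported here.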

Additional observations from a re-analysis of the deposited data

How the results depend on the processing

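No paired analysis was possible because the table gives 1 pooled value per group, and for the same reason no sample could be left out and no error can be given. The log2 ratios of the members stayed on the same side of the 1.5-fold size under each pseudocount, minimum and centring tried where they had a value. They ranged from 0.83 to 0.84 for Egr1, 1.36 to 1.38 for Egr2, 1.25 to 1.26 for Egr3, 1.28 to 1.56 for Egr4 and -0.54 to -0.53 for Nab2. At a ratio of 2, 3 members were called higher, without Egr1, beside 3.4% of all genes. Egr4 has no value at a minimum FPKM of 10, where 3 members were called higher, beside 4.06% of all genes. At a ratio of 1.3, 1 member, Nab2, was called lower, beside 15.6% of all genes. The number of all genes called higher and lower was 401 and 413 at a ratio of 2, 1751 and 1837 at 1.3, 285 and 270 at a minimum of 10, and 1523 and 1641 with no minimum. The order of the Egr genes turned with a pseudocount of 1, where Egr2 was above Egr4. The summed Egr FPKM was 2.03-fold higher with LIPUS when both groups were scaled to equal sums over all genes. What depth limits could not be examined, since the depth per library is unknown.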

Other observations

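Genes next to the Egr loci were looked up by position. Of the 8 nearest genes that do not overlap an Egr gene, on either side and with a higher FPKM of at least 1, at 2.32 to 272 kb, 1 was at least 1.5-fold higher with LIPUS, Nrbf2 near Egr2 (9.19 in Control and 14.0 FPKM with LIPUS, at a distance of 250.2 kb before it), beside 8.41% of all genes, and the log2 ratios ran from -0.26 to 0.61. Ado, which encodes a thiol dioxygenase and lies 2.32 kb from Egr2, had an FPKM of 14.5 and 16.3. Etf1, the translation termination factor gene on the far side of Egr1, had 88.6 and 91.6. Nemp2, next to Nab1, had an FPKM of 1.16 and 0.645 (log2 ratio -0.85). For Nab2 the same minimum was used, outside the genes that overlap it, Stat6 and Nemp1 among them (log2 ratios -0.36 and -0.49). The nearest on either side were then Lrp1, at 39.8 kb with a log2 ratio of 0.08, and Zbtb39, at 71.0 kb with -0.11. Gm16230, listed at 0 in both groups, lies nearer. These genes were chosen by position after the values of the members were known.

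Ranked by the distance between genes in the log2 FPKM of Control and of LIPUS, 2 values in all, the gene nearest to Egr2 was Egr3, at 0.30. The nearest to Egr3 was C1s1, at 0.26, followed by Egr2. For Egr1 the nearest were Dusp5 (0.16), which encodes a phosphatase that acts on ERK, and Gm28592 (0.19). Pi16 (0.10) and Fbxo21 (0.14) were nearest to Egr4, and Lhfpl2 (0.10) and Cdk2ap2 (0.11) to Nab2. A likeness over 2 pooled values holds for many genes at a common level and is a description only.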
